A study of Mus musculus with 2 samples.

Results

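The genes described here are 38 genes for synaptic adhesion proteins and postsynaptic scaffold proteins, of the 45777 genes in the expression table of the series. They were chosen by name, as the neurexins, LAR-type receptor phosphatases, neuroligins, LRRTM, SLITRK, cerebellin, contactin and contactin-associated genes (22 genes, called adhesion genes below) and the MAGUK, DLGAP, SHANK and HOMER scaffolds with 2 subunits of the kinase CaMKII (16 genes). RNA-seq was done on mouse teratomas, tumours that pluripotent cells form when placed under the skin and that hold tissue of all germ layers. The E14 library came from a teratoma of E14 cells, a mouse embryonic stem cell line, with wild-type Sox2. The E14-Sox2TA/WT library came from a teratoma of E14 cells in which CRISPR-Cas9 had changed 1 Sox2 allele to encode Sox2 T258A, alanine for threonine at residue 258, beside 1 wild-type allele. Both were grown for 14 days in BALB/c-nu mice, a strain without a thymus, after subcutaneous inoculation. The edited cells were grown out from single cells, so the E14-Sox2TA/WT genotype stands for a clone and E14 for the parental line, and the host's vessels and blood cells can be part of the tissue. Whether a library pooled several tumours is not given in the sources used here, and the extraction text in the labels speaks of an embryonic stem cell line while the tissue label says teratoma. The gene-level values do not separate the 2 Sox2 alleles.

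There was 1 library per genotype. No test of a difference between genotypes was therefore possible, and no result has a replicate check. Each fold is given with a 95% Clopper-Pearson interval from the reads of the gene in the 2 libraries, which covers counting error only and compares the libraries, not the genotypes. The libraries held 50529171 (E14) and 49030281 (E14-Sox2TA/WT) reads on genes. Levels are in TPM, the share of a gene in all transcripts of a library after division of its reads by transcript length. Of the RNA, 5.05% (E14) and 9.33% (E14-Sox2TA/WT) of the TPM was from mitochondrial genes. Sox2 itself was at 246 TPM in the E14 teratoma and 130 TPM in the E14-Sox2TA/WT teratoma. With 1 added to each value, the median log2 ratio of all genes with at least 1 TPM in a library was -0.06 on TPM. It was 0.11 on the FPKM scale. Without the added 1, over genes with at least 1 TPM in both libraries, the medians were -0.13 on TPM and 0.07 on FPKM. Levels and folds below are to be read against these shifts.

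At a synapse, the sending axon and the receiving dendrite are held together by adhesion proteins that bind across the cleft. Neurexins and LAR-type phosphatases on the axon bind neuroligins, LRRTM and SLITRK proteins on the dendrite. Some of the secreted cerebellins bridge neurexins to glutamate receptors. Behind the dendrite's membrane the MAGUK protein PSD-95 and its relatives hold receptors, DLGAP proteins link them to SHANK proteins, and HOMER proteins link SHANK to metabotropic glutamate receptors. SOX2 is a transcription factor that maintains pluripotent cells and neural progenitors.

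RefSeq promoter windows are shown for 3 of the genes, since the edited protein is a DNA-binding factor. Slitrk1 had the largest fold of the 38 genes. Dlg1 was the gene whose whole interval was above 1 by TPM. Cntn1 had the only window of the members to hold the SOX-type motif searched. Each window shown runs 5′ to 3′ across a transcription start on build GRCm38.p6.
Slitrk1 (chr14:108914190-108914489, minus strand): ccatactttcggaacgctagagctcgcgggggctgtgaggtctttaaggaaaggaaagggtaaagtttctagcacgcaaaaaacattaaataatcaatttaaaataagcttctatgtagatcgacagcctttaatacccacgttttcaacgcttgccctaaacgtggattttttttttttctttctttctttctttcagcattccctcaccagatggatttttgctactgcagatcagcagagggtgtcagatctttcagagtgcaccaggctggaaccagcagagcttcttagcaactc
Dlg1 (chr16:31663685-31663984, plus strand): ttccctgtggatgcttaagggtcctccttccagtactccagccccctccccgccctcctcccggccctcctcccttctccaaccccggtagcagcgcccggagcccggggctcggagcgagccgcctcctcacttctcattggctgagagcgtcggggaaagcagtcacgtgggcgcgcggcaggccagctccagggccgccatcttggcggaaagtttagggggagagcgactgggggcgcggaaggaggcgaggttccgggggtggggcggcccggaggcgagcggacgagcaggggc
Cntn1 (chr15:92127878-92128177, plus strand): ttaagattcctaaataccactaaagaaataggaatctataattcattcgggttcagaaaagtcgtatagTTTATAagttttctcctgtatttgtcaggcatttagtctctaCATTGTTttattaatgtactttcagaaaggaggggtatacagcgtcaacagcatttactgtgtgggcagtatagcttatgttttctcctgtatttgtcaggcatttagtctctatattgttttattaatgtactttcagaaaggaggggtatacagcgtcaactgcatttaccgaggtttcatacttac
In the Cntn1 window the capitals CATTGTT, from base 112 of the window, mark the reverse complement of the motif AACAATG, and the capitals TTTATA mark the reverse complement of TATAAA. The table held 47 windows for 27 of the 38 genes, and none for Camk2a, Cbln1, Cbln2, Cntnap1, Dlgap2, Lrrtm2, Nlgn3, Nrxn2, Ptprd, Shank1 and Shank2. On either strand, AACAATG was in 1 of the 47 windows (2.13%) and in 3.78% of all 32851 windows. The shifted form ACAATGG, which overlaps it by 6 letters, was in 0 of the 47 windows and in 3.66% of all windows. The motif TTCAGCACC, one arm of the site of the neuronal repressor REST, was in 1 of the 47 windows (2.13%), that of Nlgn1 at chr3:26153937-26154236, and in 0.371% of all windows. TATAAA was in 10.6% of the members' windows and 13.6% of all. Median GC was 55.7% in the members' windows and 52.7% in all windows, and the median number of CpG was 9 and 7. The Slitrk1 and Dlg1 windows shown hold none of these motifs and had 42.3% and 71.0% GC. The Dlg1 window is 1 of 4 for that gene, and the other 3 had 47.3%, 40.3% and 33.7% GC, the last with a TATAAA. The Cntn1 window shown lies inside the gene, which runs from 92051152 to 92341967. The Cntn1 windows at 92050915-92051214, by the start of the gene, and at 92161107-92161406 held none of these motifs. These counts describe letters in the windows only, and the motifs were chosen after the expression values were known.

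Of the 38, 35 had a lower level in the E14-Sox2TA/WT teratoma, and 3 (Dlg1, Dlg3 and Homer1) were at or above their E14 level. For Dlg3 this held only by TPM and FPKM and not by CPM (reads of a gene scaled to the library total). The E14 teratoma held 24 of the 38 genes at 10 TPM or more and the E14-Sox2TA/WT teratoma 10. Of the 24 genes with at least 10 TPM in a library, 20 (83.3%) were over 2-fold lower, against 18.7% of the 11578 genes that passed the same minimum, and 0 were over 2-fold higher, against 10.8%. All 24 passed that minimum in the E14 teratoma, and only 10 of them also in the E14-Sox2TA/WT teratoma. The rest entered only through the library where they were higher. Of the 10, 6 were over 2-fold lower, and no share over all genes was taken for a minimum in both libraries. The 4 of the 24 that were within 2-fold were Dlg1, Dlg3, Dlgap4 and Homer3. Of the 37 with at least 1 TPM in a library (all but Dlgap2), 34 were lower by any amount (91.9%, against 52.5% of 18558 genes) and 31 were over 2-fold lower (83.8%, against 18.9%). Taking all 38 without a minimum, 32 were over 2-fold lower, 17 over 5-fold and 6 over 10-fold, and for 31 the whole counting interval lay beyond 2-fold. Among the 24 with at least 10 TPM, 11 were over 5-fold lower and 3 over 10-fold, against 3.57% and 0.821% of the 11578 genes. Of the 14 genes under 10 TPM in both libraries, 12 were over 2-fold lower. For this count, and for those without a minimum, no share over all genes was taken, so they describe the members only. With 1 added to each TPM, the median log2 ratio of the 37 genes was -1.92, with a range from -3.37 to 0.69. In bulk tissue, fewer cells of a type and less RNA of a gene per cell cannot be told apart, and this holds for each value below.

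**Figure D1:**
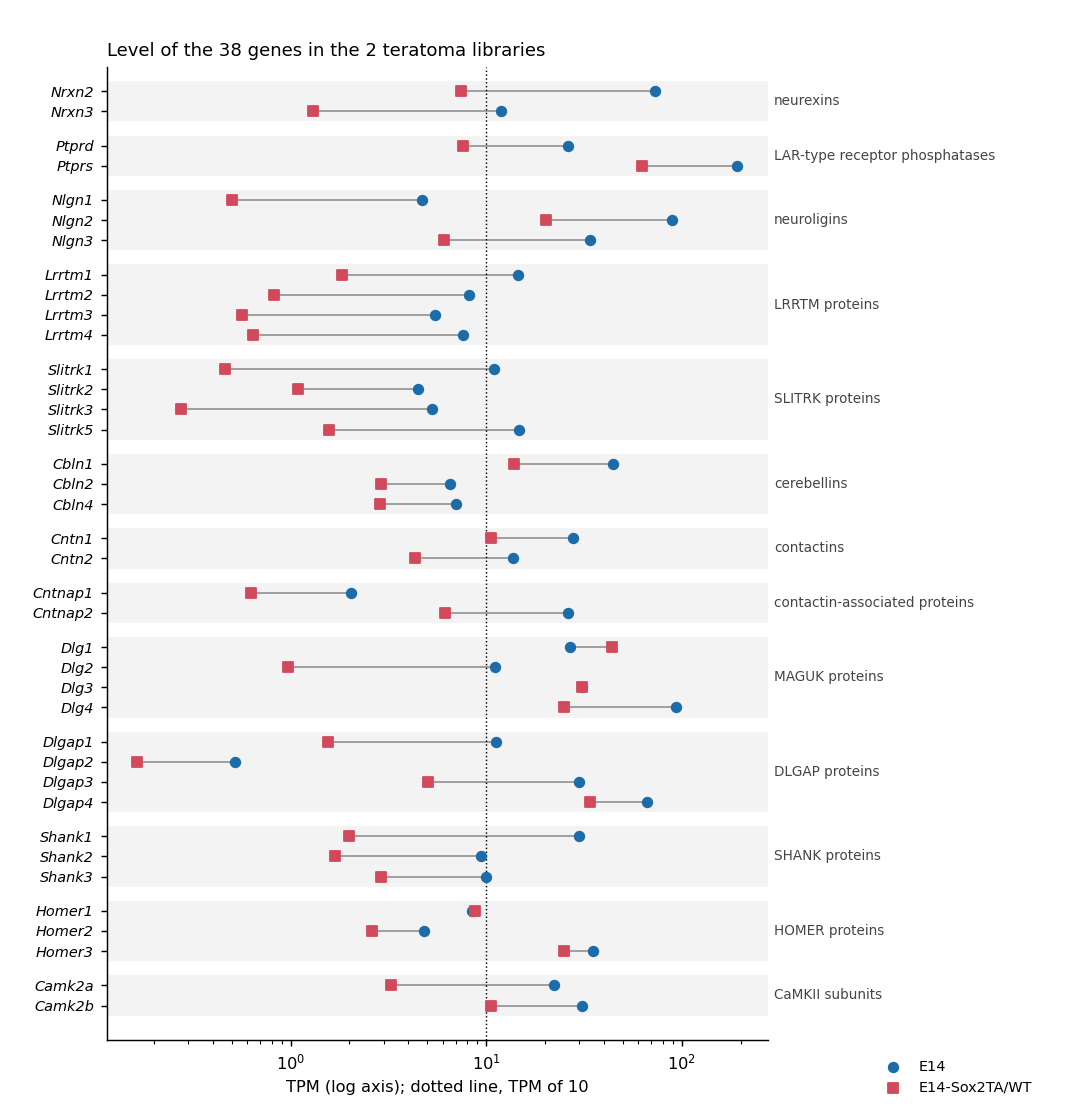
Level of each of the 38 genes in TPM (log axis) in the E14 teratoma (circles) and the E14-Sox2TA/WT teratoma (squares), 1 library each, grouped by protein family. The squares lie to the left of the circles for 35 genes, and 10 squares lie at or above 10 TPM (dotted line) against 24 circles.

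The adhesion genes and the scaffold and kinase genes differed in how evenly they were lower. All 22 adhesion genes were over 2-fold lower by TPM (21 by CPM and FPKM, where Cbln2 was not, and 20 after a correction for transcript length, where Ptprd and Cntn2 were not), by 2.25-fold to 23.7-fold with a median of 4.98-fold, and their summed level went from 631 TPM to 155 TPM. The 16 scaffold and kinase genes ran from 1.64-fold higher (Dlg1) to 15.04-fold lower (Shank1), 10 of them were over 2-fold lower, and their sum went from 420 TPM to 198 TPM. Their median log2 ratios with 1 TPM added were -1.99 (22 genes) and -1.49 (15 genes with at least 1 TPM). This difference was not tested, since the genes of a list are not replicates.

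On the axonal side, both neurexin genes among the members, which encode receptors that neuroligins and LRRTM proteins bind, were lower by more than 9-fold on TPM. Nrxn2 was at 73.0 TPM (11526 reads) in the E14 teratoma and 7.40 TPM (1314 reads) in the E14-Sox2TA/WT teratoma, 9.87-fold lower (interval 9.32 to 10.5). Nrxn3 was at 11.8 TPM (2948 reads) and 1.30 TPM (432 reads), 9.10-fold lower (8.22 to 10.1). Nrxn2 made up 86.0% of the pair's TPM in the E14 teratoma and 85.0% in the E14-Sox2TA/WT teratoma, while by CPM Nrxn2 was 8.51-fold and Nrxn3 6.62-fold lower. The receptor phosphatases PTPδ and PTPσ, which organise the presynaptic side and also act in axon growth, were lower by less. Ptprs was the most abundant of the 38 genes in both libraries, at 193 TPM (28759 reads) and 62.9 TPM (10759 reads), 3.06-fold lower (2.996 to 3.13). Ptprd was at 26.2 TPM (5794 reads) and 7.61 TPM (1987 reads), 3.44-fold lower (3.27 to 3.63). Summed over the members, the neurexins were 9.75-fold lower and the phosphatases 3.10-fold lower. Here and below, sums and shares of a family cover the members only, without paralogs such as Ptprf or Slitrk4.

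The neuroligins are the postsynaptic partners of the neurexins. Nlgn2, which belongs to inhibitory synapses, was the most abundant, at 89.4 TPM (11754 reads) in the E14 teratoma and 20.2 TPM (2777 reads) in the E14-Sox2TA/WT teratoma, 4.42-fold lower (4.24 to 4.60). Nlgn1, which belongs to excitatory synapses, was at 4.70 TPM (1741 reads) and 0.504 TPM (226 reads), 9.34-fold lower (8.13 to 10.8). Nlgn3, found at both kinds, was at 33.8 TPM (3155 reads) and 6.10 TPM (636 reads), 5.54-fold lower (5.09 to 6.04). The 3 intervals do not overlap, so the folds of the 3 genes differed by more than counting error. Of the exon bases of Nlgn3, 41.2% also belong to another annotated gene, Gm21986, and reads there cannot be assigned to one of them.

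The LRRTM genes encode leucine-rich repeat proteins of excitatory synapses that bind neurexins. All 4 were between 7.94-fold and 11.7-fold lower by TPM, with intervals that overlap. By CPM Lrrtm1 was 5.28-fold (4.49 to 6.23) and Lrrtm4 9.93-fold lower (7.59 to 13.2), and these intervals do not overlap. On TPM, Lrrtm1 was at 14.5 TPM (968 reads) and 1.82 TPM (178 reads), 7.94-fold lower (6.76 to 9.37). Lrrtm2 was at 8.199 TPM (1120 reads) and 0.818 TPM (125 reads), 10.02-fold lower (8.33 to 12.2). Lrrtm3 was at 5.45 TPM (506 reads) and 0.562 TPM (59 reads), 9.71-fold lower (7.40 to 12.9). For Lrrtm4, a heparan sulfate binding member, the levels were 7.59 TPM (604 reads) and 0.646 TPM (59 reads), 11.7-fold lower (8.98 to 15.6). Exons of Lrrtm4 share 25.1% of their bases with the antisense gene Gm4409. In the genome, Lrrtm1, Lrrtm2 and Lrrtm3 each lie inside an α-catenin gene (Ctnna2, Ctnna1 and Ctnna3) on the opposite strand. The strand setting of the counting is not given in the sources used here.

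The SLITRK proteins are partners of the LAR-type phosphatases, and their genes held both the largest fold and a moderate one. Slitrk1 (chromosome 14, 108909988 to 108914239 in RefSeq, GRCm38.p6) was at 10.97 TPM (1122 reads) and 0.463 TPM (53 reads), 23.7-fold lower (18.0 to 31.8), the largest fold of the 38 genes. Slitrk3, which acts at inhibitory synapses through PTPδ, was at 5.26 TPM (599 reads) and 0.276 TPM (43 reads), 19.1-fold lower (13.97 to 26.6). The intervals of Slitrk1 and Slitrk3 overlap. Slitrk5 was at 14.8 TPM (1662 reads) and 1.58 TPM (206 reads), 9.36-fold lower (8.09 to 10.9). Slitrk2 was at 4.47 TPM (857 reads) and 1.09 TPM (263 reads), 4.11-fold lower (3.58 to 4.74), below the intervals of the other 3. Its share of the family's TPM was 12.6% in the E14 teratoma and 31.9% in the E14-Sox2TA/WT teratoma, while that of Slitrk1 was 30.9% and 13.6%.

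The cerebellins are secreted proteins, of which Cbln1 and Cbln2 bridge neurexins to δ-type glutamate receptors. The 3 genes were 2.25-fold to 3.22-fold lower. Cbln1, the member known from cerebellar granule cells, was at 44.6 TPM (2509 reads) and 13.9 TPM (870 reads), 3.22-fold lower (2.98 to 3.48). Cbln4 was at 7.01 TPM (472 reads) and 2.85 TPM (215 reads), 2.46-fold lower (2.09 to 2.90). Cbln2 was at 6.51 TPM (391 reads) and 2.89 TPM (197 reads), 2.25-fold lower (1.89 to 2.69). The lower bound for Cbln2 is within 2-fold, and on CPM it was 1.93-fold lower, so for this gene the 2-fold line depended on the scale. All genes of chromosome 8, where Cbln1, Dlgap2 and Homer3 lie, had a median log2 ratio of -0.48, against -0.06 for the whole genome.

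The contactins and contactin-associated proteins act along axons, at the node of Ranvier and in fasciculation. Cntn1 was at 27.9 TPM (3854 reads) and 10.6 TPM (1635 reads), 2.63-fold lower (2.48 to 2.79). Over all genes of chromosome 15, where it and Shank3 lie, the median log2 ratio was 0.35. Cntn2, also known as TAG-1, was at 13.7 TPM (3141 reads) and 4.34 TPM (1112 reads), 3.16-fold lower (2.95 to 3.38). Cntnap2, which encodes CASPR2, the partner that clusters potassium channels beside the node, was at 26.2 TPM (2805 reads) and 6.16 TPM (585 reads), 4.25-fold lower (3.88 to 4.65). Cntnap1, which encodes CASPR at the junction of axon and myelin, was at 2.05 TPM (287 reads) and 0.624 TPM (104 reads), 3.28-fold lower (2.61 to 4.15). Oligodendrocyte markers, the cells that form that junction in the brain, summed to 287 TPM in the E14 teratoma and 66.7 TPM in the E14-Sox2TA/WT teratoma. Their part in the Cntnap1 value was not tested.

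**Figure D2:**
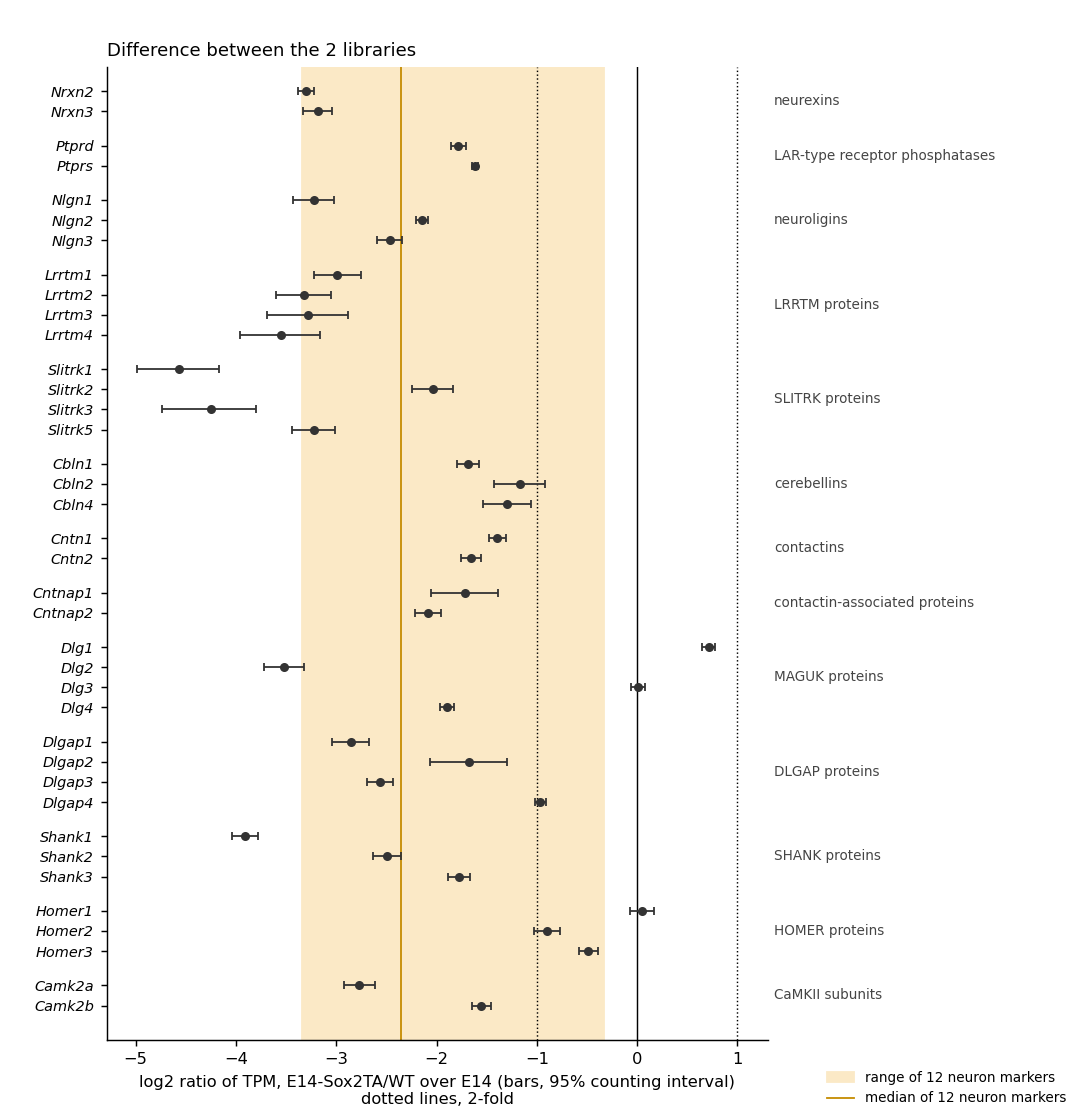
Log2 ratio of TPM, E14-Sox2TA/WT over E14, for each of the 38 genes (points; bars are 95% counting intervals, 1 library per genotype), with the range and median of 12 neuron markers shaded and lined. The points of Slitrk1, Slitrk3, Shank1, Lrrtm4 and Dlg2 (inside the range by CPM) lie past the lower end of the marker range, and Dlg1, Dlg3 (lower by CPM) and Homer1 lie at or above 0.

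Among the scaffolds, the MAGUK genes split. Dlg4, which encodes PSD-95, the main scaffold of excitatory synapses, was at 92.9 TPM (7437 reads) and 25.0 TPM (2170 reads), 3.71-fold lower (3.54 to 3.90). Dlg2, which encodes PSD-93, was at 11.2 TPM (1740 reads) and 0.974 TPM (245 reads), 11.5-fold lower (10.02 to 13.2). Dlg3, which encodes SAP102, was at 30.8 TPM (3432 reads) and 30.9 TPM (2881 reads), a ratio of 1.004 (0.955 to 1.06). Dlg1, which encodes SAP97, a polarity protein that epithelial cells also use, was at 27.0 TPM (3005 reads) and 44.2 TPM (5394 reads), a ratio of 1.64 (1.57 to 1.71). By TPM it was the only gene of the 38 with a whole interval above 1, and it stayed below the 2-fold line. Per library, Dlg4 made up 57.4% of the TPM of the 4 genes in the E14 teratoma and 24.8% in the E14-Sox2TA/WT teratoma, while Dlg1 made up 16.7% and 43.7%. The family's sum was 1.60-fold lower. The epithelial markers stood at a sum of 487 TPM in the E14 teratoma and 1296 TPM in the E14-Sox2TA/WT teratoma, with all 6 of the list higher, and their part in the level of Dlg1 was not tested.

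The DLGAP proteins join PSD-95 to SHANK. Dlgap1 was at 11.3 TPM (1729 reads) and 1.56 TPM (283 reads), 7.24-fold lower (6.38 to 8.24). Dlgap3, known from the striatum, was at 29.7 TPM (2777 reads) and 5.02 TPM (590 reads), 5.91-fold lower (5.41 to 6.47). Dlgap4, the member with the highest level, was at 66.3 TPM (7681 reads) and 34.0 TPM (4722 reads), 1.95-fold lower (1.88 to 2.02). It made up 61.5% of the family's TPM in the E14 teratoma and 83.4% in the E14-Sox2TA/WT teratoma. Dlgap2 was the lowest of the 38 genes, at 0.522 TPM (295 reads) and 0.163 TPM (73 reads), 3.20-fold lower (2.47 to 4.19).

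The SHANK proteins form the deep layer of the postsynaptic density. Shank1 (chromosome 7, 44308916 to 44360094) was at 29.95 TPM (6207 reads) and 1.99 TPM (501 reads), 15.04-fold lower (13.7 to 16.5), the largest fold of any scaffold gene. Shank2 was at 9.45 TPM (2334 reads) and 1.68 TPM (523 reads), 5.62-fold lower (5.11 to 6.196). Shank3 was at 9.98 TPM (2092 reads) and 2.91 TPM (988 reads), 3.43-fold lower (3.18 to 3.71) by TPM but 2.05-fold lower by CPM. Shank1 held 60.6% of the family's TPM in the E14 teratoma and 30.3% in the E14-Sox2TA/WT teratoma, and Shank3 held 20.2% and 44.2%, so by TPM a different gene led in each library.

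The HOMER proteins, which tie SHANK to group I metabotropic glutamate receptors and calcium stores, had the smallest summed fold of the families. Homer1 was at 8.45 TPM (1048 reads) and 8.73 TPM (1148 reads), a ratio of 1.03 with an interval that holds 1 (0.949 to 1.12). By CPM the ratio of Homer1 was 1.13, with its whole interval above 1 (0.814 to 0.964 as fold lower). Homer2 was at 4.84 TPM (1279 reads) and 2.60 TPM (768 reads), 1.86-fold lower (1.70 to 2.04). Homer3 was at 35.02 TPM (2055 reads) and 25.0 TPM (1658 reads), 1.40-fold lower (1.31 to 1.49). No HOMER gene was over 2-fold lower, and the family's sum was 1.33-fold lower. Of the exon bases of Homer3, 25.4% overlap Ddx49, a protein-coding gene on the other strand.

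CaMKII is the calcium-dependent kinase of the postsynaptic density, built of α and β subunits in neurons. Camk2a was at 22.1 TPM (2652 reads) and 3.24 TPM (412 reads), 6.82-fold lower (6.15 to 7.58). Camk2b was at 30.9 TPM (3189 reads) and 10.5 TPM (1218 reads), 2.94-fold lower (2.75 to 3.14). The α subunit was thus 41.7% of the pair's TPM in the E14 teratoma and 23.5% in the E14-Sox2TA/WT teratoma. The β subunit led in both.

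**Figure D3:**
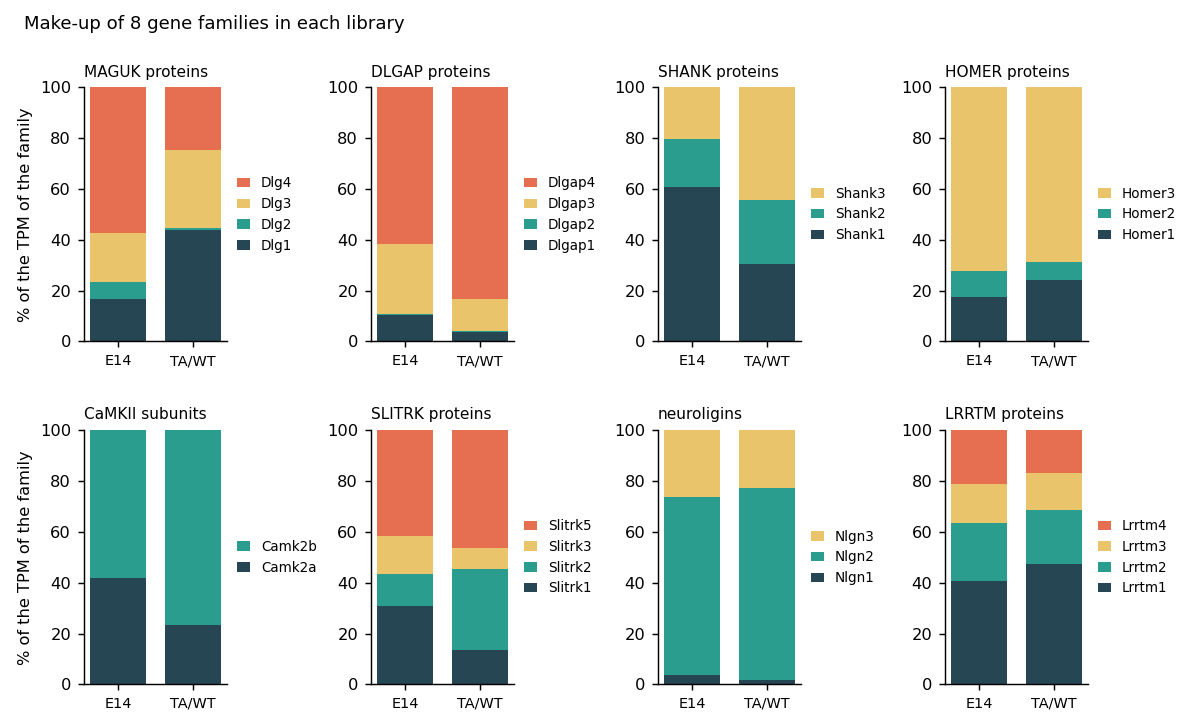
Share of each gene in the summed TPM of the members of its family (percent, stacked to 100), in the E14 and E14-Sox2TA/WT (TA/WT) libraries, for 8 families. Paralogs that are not members are left out. Dlg4 leads the MAGUK genes in the E14 teratoma (57.4%) and Dlg1 in the E14-Sox2TA/WT teratoma (43.7%), and Shank3 (44.2%) leads in place of Shank1.

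Markers of neurons moved with these values. The 12 neuron markers were all lower in the E14-Sox2TA/WT teratoma, 11 of them over 2-fold, and their summed level was 2955 TPM in the E14 teratoma and 483 TPM in the E14-Sox2TA/WT teratoma (6.12-fold lower). Their folds ran from 1.26 to 10.1 with a median of 5.16, beside a median of 4.18 for the 38 genes. By this measure, 30 of the 38 genes lay inside the markers' range, 5 past its lower end (Slitrk1, Slitrk3, Shank1, Lrrtm4 and Dlg2) and 3 above its upper end (Dlg1, Dlg3 and Homer1). The intervals of Dlg2 and Lrrtm4 overlap that of Tubb3, the marker at the lower end (9.88 to 10.4), and by CPM Dlg2, at 6.89-fold, lay inside the markers' range, as did Dlg3, with 4 genes past the lower end at 8.79-fold. Tubb3, a tubulin of neurons, was at 1722 TPM and 170 TPM, and Syt1, the calcium sensor of synaptic vesicles, at 50.8 TPM and 5.53 TPM. Tubb3 lies on chromosome 8, where the median log2 ratio of all genes was -0.48. Neural progenitor markers summed to 2868 TPM and 850 TPM (6 of 6 lower), and astrocyte markers to 806 TPM and 394 TPM (7 of 8 lower). Macrophage markers summed to 630 TPM and 1190 TPM (4 of 4 higher), and skeletal muscle markers to 332 TPM and 177 TPM (7 of 8 lower). Of the muscle markers, Myh8 was 10.3-fold lower (9.18 to 11.6, an interval that overlaps that of Tubb3), Myh3 4.62-fold and Mylpf 1.65-fold. Endothelial markers summed to 58.9 TPM and 63.5 TPM (2 lower and 2 higher). Cartilage markers summed to 117 TPM and 107 TPM (2 lower and 2 higher of 4 with at least 1 TPM, Sox9 2.61-fold lower and Col2a1 1.29-fold higher). Schwann and neural crest markers summed to 28.7 TPM and 19.1 TPM (1 lower and 2 higher of 3, Sox10 3.17-fold lower and Erbb3 1.87-fold higher). The markers of pluripotent cells had the largest fold between the libraries of these lists, with a sum of 60.4 TPM in the E14 teratoma and 1649 TPM in the E14-Sox2TA/WT teratoma and all 4 higher. No marker of these lists was at 0 reads in the E14-Sox2TA/WT teratoma, and 1 cartilage marker was at 0 in the E14 teratoma. The part of cell content in the values of the 38 genes was not tested.

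Genes of the same pathway that are not among the 38 were lower too. Of 17 paralogs of the members, 13 had at least 1 TPM, 12 of these were lower and 8 over 2-fold lower, with a median log2 ratio of -1.05. Among them Ptprf, which encodes LAR itself, was at 81.0 TPM and 46.9 TPM (1.73-fold lower, 1.68 to 1.77), and Camk2g, a CaMKII subunit of many tissues, at 66.7 TPM and 23.8 TPM (2.80-fold, 2.67 to 2.94). Dlg5 was at 30.4 TPM and 14.1 TPM (2.15-fold lower, 2.06 to 2.25). Of 39 further synaptic adhesion genes, 37 had at least 1 TPM, 36 of these were lower and 27 over 2-fold lower, with a median of -1.59. Lrrc4b, the postsynaptic partner of LAR-type phosphatases, was at 166 TPM and 16.4 TPM (10.1-fold lower, 9.54 to 10.8), and Clstn1 (calsyntenin-1) was at 162 TPM and 63.4 TPM (2.56-fold, 2.49 to 2.63). Tenm2, a teneurin, had 3886 reads and 284 reads and was 43.6-fold lower by TPM (38.6 to 49.4) but 13.3-fold lower by CPM. Of 26 further postsynaptic proteins, 23 were lower, 18 over 2-fold, and 3 higher, with a median of -1.24. Dbn1, the actin-binding protein drebrin, was at 286 TPM and 110 TPM (2.59-fold lower, 2.53 to 2.66), and Lin7c, which epithelia also use, at 80.7 TPM and 69.1 TPM (1.17-fold, 1.13 to 1.204).

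**Figure D4:**
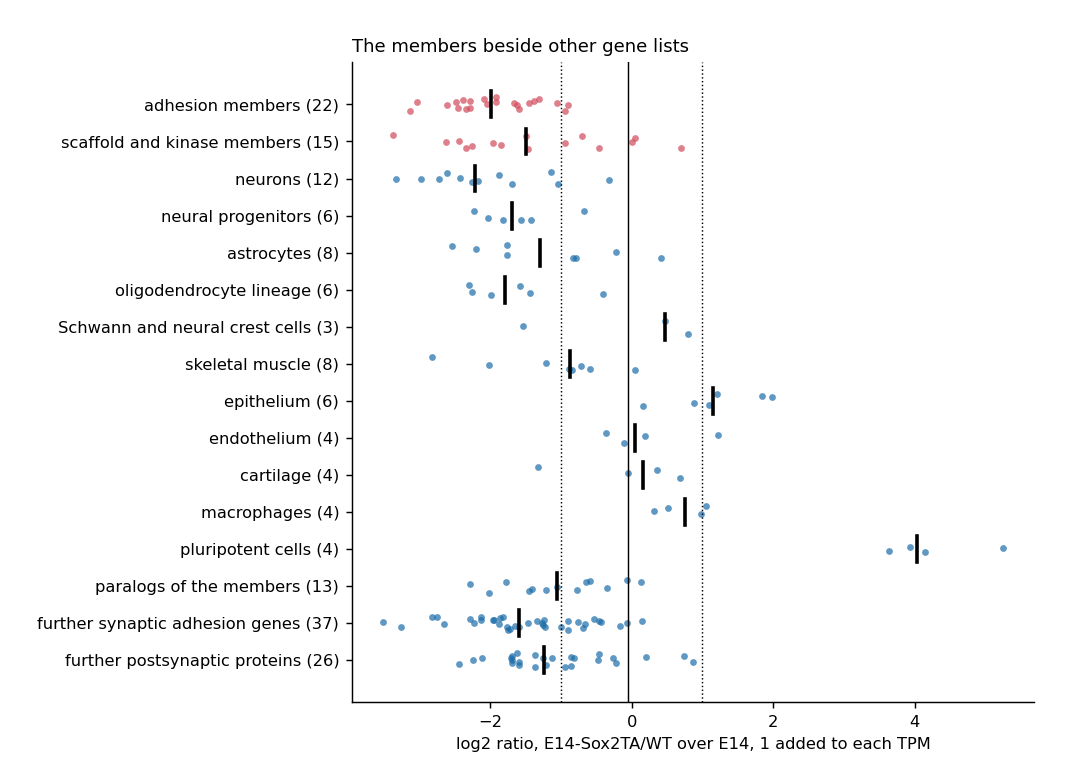
Log2 ratio of each gene, E14-Sox2TA/WT over E14 with 1 added to each TPM, for the 38 genes in 2 lists (red) and for other lists (blue), for genes with at least 1 TPM in a library; bars are list medians and the solid line is the median of all genes. The adhesion genes (median -1.99) lie nearest to the neuron markers (-2.22) and the oligodendrocyte markers (-1.79), and the pluripotency markers (4.04) lie on the other side.

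The ratio of reads to FPKM of a gene scales with the mean length of its transcripts in a library, so a change in that ratio shows that the authors' estimate used longer or shorter transcripts in one library. Of the 33 genes with at least 100 reads in both libraries, 9 (27.3%) had a ratio changed by over 10%, against 7.42% of 14292 genes. Over all 38, it was over 10% higher in the E14-Sox2TA/WT teratoma for 8 genes and over 10% lower for 3. Shank3 (45.2% higher) and Dlg2 (44.5% higher) had the largest changes, followed by Lrrtm1 (30.7%), Slitrk3 (22.5%, on 43 reads) and Nrxn3 (19.4%). The lower ones were Dlgap2 (-29.2%), Dlg3 (-25.1%) and Cntnap2 (-20.7%). For Dlg3, equal levels by TPM went with fewer reads, 1.16-fold lower by CPM, and Dlg2 was 11.5-fold lower by TPM but 6.89-fold by CPM. Which transcripts were used is not given by gene-level values.

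**Figure D5:**
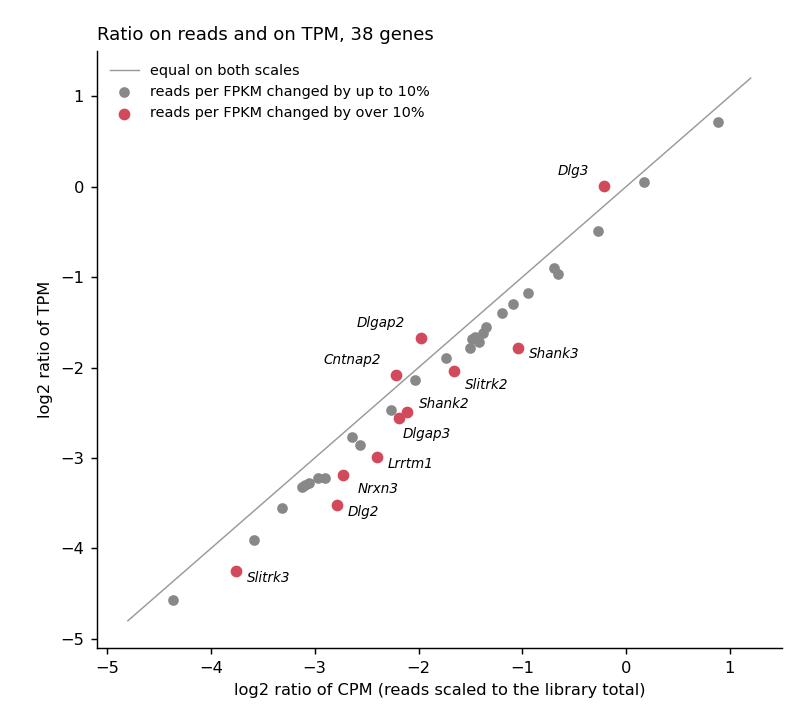
Log2 ratio (E14-Sox2TA/WT over E14) of TPM against that of CPM for the 38 genes, with the line of equality and, in red, the 11 genes whose reads per FPKM changed by over 10%. Shank3 and Dlg2 lie farthest below the line, and Dlg3 lies at 0 on TPM and below 0 on reads.

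Transcript length moved with the ratios of all genes. In 20 bins of equal size by length, the median log2 ratio of all genes went from 0.47 in the bin of shortest transcripts to -0.66 in the bin of longest, and 25 of the 37 members with at least 1 TPM were in the 5 longest bins, 10 of them in the longest. After subtraction of each bin's median, the members' median was -1.58 in place of -1.92. Without that length term, Ptprd, Cntn2 and Shank3 were over 2-fold lower, and with it they were within 2-fold. The part of length in the members' values was not tested beyond this.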

How the data were processed

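Per the labels, the submitters' processing notes name bcl2fastq 2.20.0, Trimmomatic, HISAT2 2.1.0, StringTie 2.1.3b and the builds mm10 (mouse) and hg19 (human), and the samples here are mouse. The authors deposited, for each gene, read counts, FPKM and TPM in 2 libraries: the count is whole reads on the gene, FPKM divides it by transcript length and library, and TPM scales FPKM to the same total in each library, so TPM ratios were 0.871 times FPKM ratios. The TPM column was used as deposited for all levels and folds. A gene was called where TPM was at least 10 in a library and the ratio passed 2-fold, and medians used log2(TPM + 1) of genes with at least 1 TPM in a library, a scale that understates the change of low genes. Intervals are Clopper-Pearson on the reads, 95%, carried to the TPM ratio. With 1 library per group no count test was run. edgeR 4.0.16 gave TMM factors only. Reads per FPKM stood for transcript length, and was compared for genes with at least 100 reads in both libraries. Coordinates, exon overlaps and promoter windows came from RefSeq and GENCODE M21 on the mouse build, with 45675 of 45777 genes matched. The scripts were tested on simulated data. Python 3.11.15 and scipy 1.17.1 were used. Genes named from other lists are the most abundant and the most changed of each. The 38 genes, the lists and the motifs were chosen with earlier results of these data known.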

Additional observations from a re-analysis of the deposited data

How the results depend on the processing

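No paired analysis was possible because each genotype has 1 library, and for the same reason no library could be left out. Depth limits the lowest members, with 43 to 73 reads for Slitrk3, Slitrk1, Lrrtm3, Lrrtm4 and Dlgap2 in the E14-Sox2TA/WT teratoma. The count of 20 of 24 members over 2-fold lower became 31 of 37 with a minimum of 1 TPM and 32 of 38 with no minimum. With at least 10 TPM in both libraries it was 6 of 10, a smaller share. The share over all genes was not taken for the last 2 settings. With a 1.5-fold line, 1 member (Dlg1) was called higher, in place of 0. The median of -1.92 was -2.07 with 0.1 added to each TPM, -0.88 with 10 added, -2.01 for genes with at least 10 TPM, -1.39 on FPKM, -2.02 on CPM, -2.14 with TMM, -2.13 with median-of-ratios factors and -1.58 after subtraction of length-bin medians. TPM values were 2.33 (E14) and 2.03 (E14-Sox2TA/WT) times the FPKM values. The 1 added therefore weighs more on FPKM, and the value of -1.39 does not reflect the scale alone. The same holds for the medians on CPM, TMM and median of ratios. Without the added 1, the median shift of the members' log2 ratios from TPM was 0.22 on CPM. It was 0.09 with TMM and 0.10 with median of ratios, all toward smaller folds. Some members, such as Dlg3 and Cntnap2, moved the other way. No direction of these summaries reversed. For single members, 112 of 227 values under other scalings lay within the counting interval and 115 beyond it. Dlg3 was lower in place of level on CPM, TMM and median of ratios. Cbln2 was within 2-fold on CPM and FPKM, and Cntn2, Ptprd and Shank3 with length bins.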
